A study of Rattus norvegicus with 35 samples.

Results

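The glutathione transferases measured here are 10 rat genes: Gsta3 and Gsta4 of the alpha class, Gstm1, Gstm2, Gstm3 and Gstm4 of the mu class, Gstp1 of the pi class, Gstt1 and Gstt2 of the theta class, and the membrane-bound Mgst1. They were chosen by gene symbol and were read from 11 of the 31042 tested probe sets of an Affymetrix rat genome array, on which 14217 genes were represented. Gstt2 had 2 probe sets and each other gene had 1, and the probe set with the higher mean over all arrays stands for Gstt2. Liver RNA came from individual Wistar Han IGS rats of a feeding study in which a triazole fungicide was given in the diet from gestation day 6 until postnatal day 92. The arrays with values came from 7 untreated controls at 0 ppm, 5 animals at 500 ppm and 4 at 2000 ppm of myclobutanil, 3 at 500 ppm and 4 at 2500 ppm of propiconazole, and 5 at 500 ppm and 4 at 1800 ppm of triadimefon. The labels do not state the animals' sex or whether animals of a group were littermates. The samples' titles and the labelling protocol name liver, but the extraction protocol names testis.

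Glutathione transferases join the tripeptide glutathione to electrophilic compounds, which makes these more soluble in water and ready for export from the cell. The cytosolic enzymes are dimers of subunits of the same class, and alpha and mu subunits make up much of the transferase protein of rat hepatocytes. Their genes are known as targets of the antioxidant response factor NRF2 (Nfe2l2), of the nuclear receptors CAR (Nr1i3) and PXR (Nr1i2), and of the aryl hydrocarbon receptor (Ahr). Triazole fungicides inhibit the fungal lanosterol demethylase and are known inducers of drug-metabolising enzymes in rodent liver.

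In these arrays Gsta3 and Gstm4 rose at triadimefon 1800 ppm and Gstm3 rose at propiconazole 2500 ppm, each against the controls. The Gstm3 call depended on the processing: it was lost under 13 of 24 alternative settings, among them a covariate for RNA integrity. The Gsta3 and Gstm4 calls were each lost under 3 of 26. Both were lost among the animals numbered above 3000 alone, which hold 3 of the 4 treated animals. There the Gstm4 difference was 0.522, against 1.11 in the main fit. No member passed the test against the controls at myclobutanil 500 or 2000 ppm, propiconazole 500 ppm or triadimefon 500 ppm. Gstp1 differed little between groups, with group means from 0.948 to 1.01. The values are the deposited scores, 1 per probe set and array. No label states their log base or normalisation, so a difference of scores cannot be taken for a log2 fold change.

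The region just upstream of the gene start is where the factors named above can bind, and it is shown for the 3 genes that passed the test and, for contrast, for Gstp1. Each sequence holds the 250 bases before the start in RefSeq's GRCr8 annotation, on the strand of the gene, and capitals mark matches to the motifs searched. Gsta3 has 2 annotated starts on chromosome 9 (plus strand), at the ends of chr9:31154739-31154988 and chr9:31166793-31167042. Gstm3 (chr2:198300668-198300917) and Gstm4 (chr2:198373384-198373633) are on the minus strand of chromosome 2, and Gstp1 (chr1:210769706-210769955) is on the minus strand of chromosome 1.
Gsta3 start 1: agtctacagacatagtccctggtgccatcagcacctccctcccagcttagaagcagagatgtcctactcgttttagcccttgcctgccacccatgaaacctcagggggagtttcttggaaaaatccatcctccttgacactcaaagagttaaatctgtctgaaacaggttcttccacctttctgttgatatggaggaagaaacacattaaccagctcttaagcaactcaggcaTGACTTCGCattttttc
Gsta3 start 2: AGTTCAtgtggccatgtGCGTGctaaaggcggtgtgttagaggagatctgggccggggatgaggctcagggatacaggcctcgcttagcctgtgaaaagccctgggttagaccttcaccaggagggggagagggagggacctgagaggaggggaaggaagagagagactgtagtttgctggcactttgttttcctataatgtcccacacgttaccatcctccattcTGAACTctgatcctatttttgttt
Gstm4: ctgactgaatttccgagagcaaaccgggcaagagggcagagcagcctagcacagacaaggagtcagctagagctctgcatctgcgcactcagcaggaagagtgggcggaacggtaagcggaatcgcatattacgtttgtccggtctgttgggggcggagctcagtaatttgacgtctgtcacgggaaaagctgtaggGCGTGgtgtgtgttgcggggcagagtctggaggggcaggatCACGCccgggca
Gstm3: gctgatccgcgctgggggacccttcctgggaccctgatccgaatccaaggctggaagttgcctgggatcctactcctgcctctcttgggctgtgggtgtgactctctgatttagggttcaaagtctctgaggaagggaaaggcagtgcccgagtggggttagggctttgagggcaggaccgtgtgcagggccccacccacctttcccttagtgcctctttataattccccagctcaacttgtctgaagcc
Gstp1: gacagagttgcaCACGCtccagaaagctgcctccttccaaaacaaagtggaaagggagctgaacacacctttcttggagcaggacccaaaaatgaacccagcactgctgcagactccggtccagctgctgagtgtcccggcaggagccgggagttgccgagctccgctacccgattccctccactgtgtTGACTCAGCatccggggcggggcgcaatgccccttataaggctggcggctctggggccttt

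The motifs searched on both strands were TGACNNNGC, the core of the antioxidant response element, GCGTG, the core of the xenobiotic response element, and the nuclear receptor half-sites AGGTCA and AGTTCA. The marked matches do not overlap each other. TGACNNNGC was found at the first Gsta3 start, as TGACTTCGC with its first base at position -17, and at Gstp1, as TGACTCAGC at -61. GCGTG was found 2 times at Gstm4, at -53 and, on the opposite strand, at -12, and also at the second Gsta3 start (-233) and at Gstp1 (-238, opposite strand). The second Gsta3 start held AGTTCA 2 times, at -250 and, on the opposite strand, at -24. The Gstm3 window held none of the 4 motifs. Among 33469 annotated promoters of the same length, 10.1% held TGACNNNGC, 25.9% GCGTG, 14.1% AGGTCA and 12.2% AGTTCA. Of the other members with a sequence, Gsta4 held GCGTG and AGTTCA, Gstm1 held AGGTCA, and Gstm2 and Mgst1 held no match. Promoters of 8 of the 10 members were in the table used; Gstt1 and Gstt2 are named without one. These matches describe letters and were not tested as binding sites.

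Of the 10 members, 8 neighbour another glutathione transferase gene; Gstt2, between Mif and Rps28-ps4, and Mgst1, between Slc15a5 and Lmo3, do not. Gstm3, Gstm2, Gstm1 and Gstm4 follow each other as neighbouring protein-coding genes on chromosome 2, Gsta3 neighbours Gsta1 on chromosome 9, Gsta4 neighbours Gsta5 on chromosome 8, Gstp1 neighbours Gstp3 on chromosome 1, and Gstt1 lies between Gstt4 and Gstt3 on chromosome 20. Symbols in this family have moved between genes: the rat gene table gives Gsta5 and Yc2 as synonyms of the Gsta3 used here (Entrez gene 494500) and Gstm4 as a synonym of Gstm3 (Entrez gene 57298). Whether transcripts of near-identical relatives contributed to a probe set's score was not tested.

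The arrays differed in ways that touched these genes. The difference between 3′ and 5′ control probe sets of GAPDH and β-actin, a reading of RNA integrity, ran from 0.50 to 2.12 among the controls and from 1.16 to 1.86 at triadimefon 1800 ppm, but from 0.469 to 0.577 at triadimefon 500 ppm and 0.535 to 0.666 at propiconazole 2500 ppm. The GAPDH part exceeded 0.9 on 9 arrays, namely replicates 2 to 4 of triadimefon 1800 ppm, replicates 1 and 5 of myclobutanil 500 ppm, and controls 4 to 7. Triadimefon 1800 ppm replicate 1, under that limit, had a 3′–5′ difference of 1.17, and replicate 3, over it, had 1.16. Animals numbered above 3000 were controls 5 to 7 and triadimefon 1800 ppm replicates 2 to 4. Of 14 hepatocyte markers 13 were measured, and all 13 had a mean above the 90th percentile of the probe sets. The spermatid transcripts Prm1, Tnp1 and Odf1 were also scored on most arrays: Prm1 was above 2 on 5 arrays (myclobutanil 500 ppm replicates 2 and 5, myclobutanil 2000 ppm replicate 5, triadimefon 500 ppm replicate 3 and triadimefon 1800 ppm replicate 2) and below 0 on 5 (controls 5 and 6 and triadimefon 1800 ppm replicates 1, 3 and 4). Over the 32 arrays, the Pearson correlation of a member with Prm1 lay between -0.316 (Gstm4) and 0.177 (Gstt2). The 3 called differences from the controls passed as well without the 5 arrays of high Prm1.

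**Figure D1:**
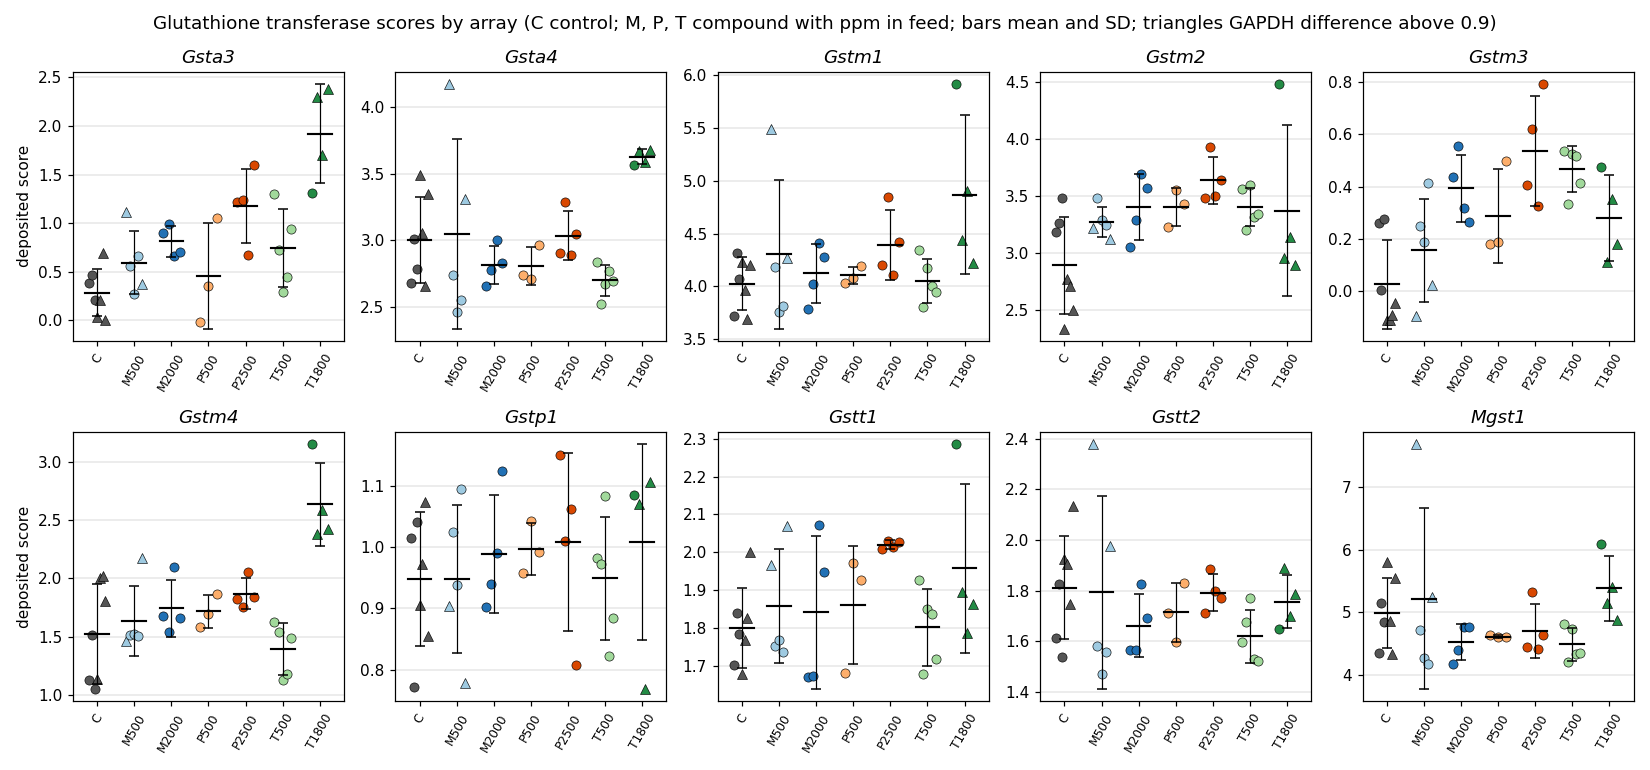
Deposited score (vertical axes) of the 10 glutathione transferases on each of the 32 arrays, by group: C is control, and M, P and T are myclobutanil, propiconazole and triadimefon with the ppm in feed. Each point is an animal, triangles are arrays with a GAPDH 3′–5′ difference above 0.9, and bars give the mean and SD. All 4 arrays at triadimefon 1800 ppm lie above all controls for Gsta3, Gsta4 and Gstm4.

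The alpha-class gene Gsta3 rose at triadimefon 1800 ppm and was intermediate at the other high levels. Its synonym Yc2 is the rat liver subunit known for conjugating the epoxide of aflatoxin, and it is described as low in adult rat liver and inducible. Its score in the 7 controls ran from 0.00761 to 0.691 with a median of 0.210. The 4 arrays at triadimefon 1800 ppm stood at 1.31, 2.30, 1.70 and 2.38. The treated and control arrays did not overlap, and the lowest treated value, in replicate 1, came from the triadimefon 1800 ppm array with the low GAPDH difference. Gsta3 rose by 1.63 ± 0.220 (SE; 95% interval 1.18 to 2.08; limma, adjusted p = 8.94e-05; 4 of 4 arrays above every control).

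The group means of Gsta3 were ordered as control (0.287 ± 0.244, SD, n = 7), propiconazole 500 ppm (0.461 ± 0.544, n = 3), myclobutanil 500 ppm (0.595 ± 0.328, n = 5), triadimefon 500 ppm (0.741 ± 0.401, n = 5), myclobutanil 2000 ppm (0.815 ± 0.160, n = 4), propiconazole 2500 ppm (1.18 ± 0.381, n = 4) and triadimefon 1800 ppm (1.92 ± 0.510, n = 4). The arrays of each group overlapped those of its neighbour in this order. At propiconazole 2500 ppm the scores were 1.22, 1.24, 0.670 and 1.59, and 3 of the 4 lay above every control. That difference, 0.893 (95% interval 0.442 to 1.34), did not pass over all probe sets (limma, adjusted p = 0.0707), nor did 0.528 at myclobutanil 2000 ppm (0.077 to 0.979, adjusted p = 0.153) or 0.454 at triadimefon 500 ppm (0.033 to 0.875, adjusted p = 0.146). Each of these intervals lay above 0, but none is adjusted for the number of probe sets. At propiconazole 500 ppm the score spread from -0.0187 to 1.05 over 3 arrays, on both sides of the controls' range. Against triadimefon 500 ppm, Gsta3 was higher by 1.18 at 1800 ppm (0.696 to 1.66, adjusted p = 0.00294), with no overlap.

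Gsta3 at triadimefon 1800 ppm was also compared within the array differences named above. Adding the 3′–5′ difference as a covariate put it 1.61 above the controls (adjusted p = 0.000101), and with the animal number series as a block 1.55 (adjusted p = 0.000346). Among animals numbered above 3000 (3 treated, 3 controls) the difference was 1.82 (adjusted p = 0.151). Among those numbered below (1 treated, 4 controls) it was 1.03 (adjusted p = 0.0971), and without the arrays of high GAPDH difference, where the same treated array is left, 0.950 (adjusted p = 0.0826). In these last fits the lone treated array is assumed to vary like the other groups. Its correlation with the 3′–5′ difference over 32 arrays was 0.136. In bulk liver RNA such as this, more cells of a type and more RNA per cell cannot be told apart.

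Gsta4, known for conjugating hydroxynonenal, an aldehyde formed when lipids are oxidised, scored 3.57, 3.67, 3.59 and 3.68 at triadimefon 1800 ppm. The controls ran from 2.65 to 3.49 with a median of 3.01, so all 4 treated arrays lay above them by a narrow gap. The difference of 0.625 (95% interval 0.201 to 1.05) did not pass (limma, adjusted p = 0.171). Gsta4 followed the array quality closely: over 32 arrays its correlation was 0.794 with the 3′–5′ difference and 0.895 with the spread (SD) of all scores on the array, which share the arrays themselves. Its highest single score, 4.17, was in myclobutanil 500 ppm replicate 1, the array with the largest 3′–5′ difference, 2.45. With that difference as a covariate, Gsta4 at triadimefon 1800 ppm was 0.511 above the controls and passed (adjusted p = 0.0228), and it passed also after quantile normalisation (0.444, adjusted p = 0.00566). In no other group did its difference from the controls exceed 0.304 in size, the value at triadimefon 500 ppm, where it was lower.

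The mu-class gene Gstm4 scored 3.15, 2.38, 2.59 and 2.42 at triadimefon 1800 ppm, against 1.05 to 2.02 in the controls with a median of 1.52. The groups did not overlap. Gstm4 rose by 1.11 ± 0.183 (SE; 95% interval 0.738 to 1.49; limma, adjusted p = 0.000921). The controls themselves separated by animal number: controls 1 to 4 scored 1.13, 1.52, 1.05 and 1.13, and controls 5 to 7, numbered above 3000, scored 2.00, 2.02 and 1.81. Within the animals above 3000 the difference was 0.522 (3 treated, 3 controls; adjusted p = 0.212). Within those below it was 1.95 (adjusted p = 3e-05), a value that rests on 1 treated array against 4 controls and takes its spread from the other groups. Whether the difference itself differs between the number series was not tested. With the number series as a block the difference was 1.02 (adjusted p = 0.00363).

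Among arrays of high GAPDH difference alone, Gstm4 was 0.724 higher at triadimefon 1800 ppm (3 treated, 4 controls; adjusted p = 0.539), and without those arrays the same lone treated array was 1.92 above 3 controls (adjusted p = 3.5e-06, with the spread of the other groups). The order of its group means was triadimefon 500 ppm (1.39 ± 0.222, SD, n = 5), control (1.52 ± 0.426, n = 7), myclobutanil 500 ppm (1.64 ± 0.301, n = 5), propiconazole 500 ppm (1.72 ± 0.144, n = 3), myclobutanil 2000 ppm (1.74 ± 0.243, n = 4), propiconazole 2500 ppm (1.87 ± 0.133, n = 4) and triadimefon 1800 ppm (2.64 ± 0.356, n = 4). Neighbours in this order overlapped except for the last pair, whose doses differ. Against triadimefon 500 ppm, where the 5 arrays lay between 1.13 and 1.62, Gstm4 was higher by 1.24 at 1800 ppm (0.842 to 1.65, adjusted p = 0.000737). That difference passed under all 22 alternatives run for it, 2 of which hold the lone treated array only.

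Gstm3, another mu-class gene, scored near the middle of the array in the controls, from -0.109 to 0.277 with a median of -0.0436. At propiconazole 2500 ppm it stood at 0.408, 0.619, 0.325 and 0.791, above every control. It rose by 0.508 ± 0.101 (SE; 95% interval 0.302 to 0.714; limma, adjusted p = 0.0228). The 5 arrays at triadimefon 500 ppm, 0.537, 0.335, 0.524, 0.517 and 0.415, were also all above the controls, and the difference of 0.438 (0.245 to 0.631) missed the threshold (adjusted p = 0.0600). At myclobutanil 2000 ppm 3 of the 4 arrays, at 0.437, 0.554, 0.320 and 0.263, were above every control, with a difference of 0.366 (0.159 to 0.572, adjusted p = 0.0838). At triadimefon 1800 ppm the scores were 0.476, 0.113, 0.351 and 0.182, and 2 of them lay inside the controls' range. The remaining means were 0.157 ± 0.197 at myclobutanil 500 ppm (SD, n = 5) and 0.289 ± 0.180 at propiconazole 500 ppm (n = 3).

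Gstm3 was low where the 3′–5′ difference was high (correlation -0.741 over 32 arrays, and -0.695 for deviations from the group means). Controls 4 to 7, with a high GAPDH difference, scored -0.109 to -0.0436, and controls 1 to 3 scored 0.260, 0.00651 and 0.277. No array at propiconazole 2500 ppm had a high GAPDH difference. Once the 3′–5′ difference was a covariate, Gstm3 at propiconazole 2500 ppm was 0.339 above the controls and no longer passed (adjusted p = 0.124). Without the arrays of high GAPDH difference, which leaves 3 controls, it was 0.355 above them (adjusted p = 0.338), and among animals numbered below 3000 it was 0.427 above them (adjusted p = 0.282). The call was also lost when any of controls 4, 5, 6 or 7, or propiconazole 2500 ppm replicate 1, 2 or 4, was left out. At triadimefon 500 ppm the covariate brought the Gstm3 difference to 0.247.

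**Figure D2:**
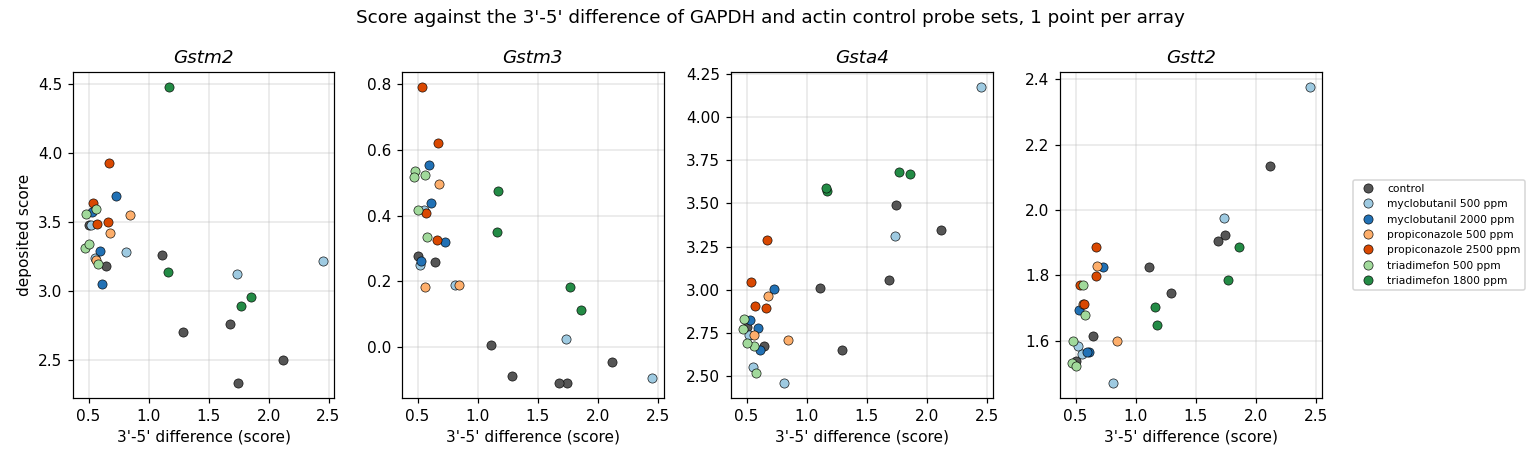
Deposited score of Gstm2, Gstm3, Gsta4 and Gstt2 (vertical axes) against the 3′–5′ difference of the control probe sets (horizontal axes, score units), 1 point per array, coloured by group. Gsta4 and Gstt2 lie higher, and Gstm2 and Gstm3 lower, on arrays with a large 3′–5′ difference; the correlations over 32 arrays are 0.794, 0.792, -0.544 and -0.741 in that order.

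Gstm1 and Gstm2 encode abundant mu-class subunits of rat liver. Gstm1 scored 5.92, 4.44, 4.91 and 4.22 at triadimefon 1800 ppm against 3.69 to 4.32 in the controls, with 3 of 4 arrays above every control. The difference of 0.843 (95% interval 0.301 to 1.39) did not pass (limma, adjusted p = 0.139). It passed after quantile normalisation, with a smaller value of 0.427 (adjusted p = 0.0151). Gstm1 correlated at 0.774 with the SD of the array and at 0.373 with the 3′–5′ difference.

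Gstm2 scored 3.48, 3.93, 3.50 and 3.64 at propiconazole 2500 ppm, above every control, and the difference of 0.747 (95% interval 0.291 to 1.20) did not pass (limma, adjusted p = 0.108). Its controls split as those of Gstm3 did: controls 1 to 3 scored 3.18, 3.26 and 3.48, and controls 4 to 7, with high GAPDH differences, scored 2.33, 2.77, 2.71 and 2.50. Without the arrays of high GAPDH difference the Gstm2 value at propiconazole 2500 ppm was 0.329 (adjusted p = 0.662). At triadimefon 1800 ppm replicate 1 scored 4.48 and replicates 2 to 4 scored 2.96, 3.14 and 2.90. The 3 lower arrays are those with high GAPDH differences, and the score of 4.48 lies above that of every other array. The difference from the controls was 0.478 (0.022 to 0.934, adjusted p = 0.427), and 0.551 with the 3′–5′ covariate (adjusted p = 0.176).

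Gstp1, the pi-class gene known as low in normal rat hepatocytes and as a marker of preneoplastic liver foci, ran from 0.769 to 1.15 over all arrays. Its controls ran from 0.771 to 1.07 with a median of 0.972. Differences from the controls lay between 0.000282 and 0.0601. At triadimefon 1800 ppm, where it scored 1.09, 1.07, 0.769 and 1.11, the 95% interval was -0.0861 to 0.206 (limma, adjusted p = 0.853). Bile duct cells are known to express Gstp1, and of 9 bile duct markers 7 were measured, 5 of them with a mean below the median of the array, Krt7 (-0.115) and Krt19 (-0.0866) included. Epcam (0.636) and Spp1 (0.0520) were not below it.

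Of the theta class, Gstt1, known for conjugating halogenated methanes, scored 2.01, 2.03, 2.01 and 2.03 at propiconazole 2500 ppm. The controls ran from 1.68 to 2.00, so the groups did not overlap, and the difference of 0.220 (95% interval 0.0403 to 0.40) did not pass (limma, adjusted p = 0.184). It passed after quantile normalisation (0.342, adjusted p = 0.0283). At triadimefon 1800 ppm Gstt1 scored 2.29, 1.90, 1.79 and 1.86, with 1 array above the controls.

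The 2 Gstt2 probe sets did not behave alike. By the main probe set the controls ran from 1.54 to 2.13, and every treated group mean lay below the control mean of 1.81, by 0.019 to 0.192, none past the threshold. Its correlation with the 3′–5′ difference was 0.792. By the second, dimmer probe set the controls ran from 0.129 to 0.324, and all 4 arrays at myclobutanil 2000 ppm (0.358 to 0.451) and all 4 at propiconazole 2500 ppm (0.341 to 0.445) lay above them. Those differences, 0.196 (adjusted p = 0.0682) and 0.177 (adjusted p = 0.0783), did not pass. Of all probe sets, 0.332% lay above the controls without overlap at myclobutanil 2000 ppm and 0.767% at propiconazole 2500 ppm. By the second probe set the controls with high GAPDH differences scored 0.129 to 0.186, and the other controls 0.237 to 0.324. No array at myclobutanil 2000 ppm or propiconazole 2500 ppm had a high GAPDH difference, but 3 of 4 at triadimefon 1800 ppm did. How much of this probe set's differences between groups goes with array quality was not tested. The second probe set scored 0.0935 to 0.238 at triadimefon 1800 ppm. It was lower there than at triadimefon 500 ppm by 0.161 (limma, adjusted p = 0.0237), while the main probe set was higher by 0.136 (adjusted p = 0.429).

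Mgst1 encodes a small enzyme of the endoplasmic reticulum and outer mitochondrial membrane that is unrelated in sequence to the cytosolic transferases and also reduces lipid peroxides. Its controls ran from 4.33 to 5.80 with a median of 4.86. At triadimefon 1800 ppm it scored 6.09, 5.15, 5.40 and 4.87, with 1 array above the controls, and the difference of 0.398 had a 95% interval of -0.462 to 1.26 (limma, adjusted p = 0.824). Its mean was lower than that of the controls at myclobutanil 2000 ppm (-0.461), propiconazole 500 ppm (-0.371), propiconazole 2500 ppm (-0.281) and triadimefon 500 ppm (-0.496), and none passed. Mgst1 followed the SD of the array more closely than any other member did, with a correlation of 0.949, and its highest score of 7.68 came from the array with the largest SD, 1.02 (myclobutanil 500 ppm replicate 1).

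**Figure D3:**
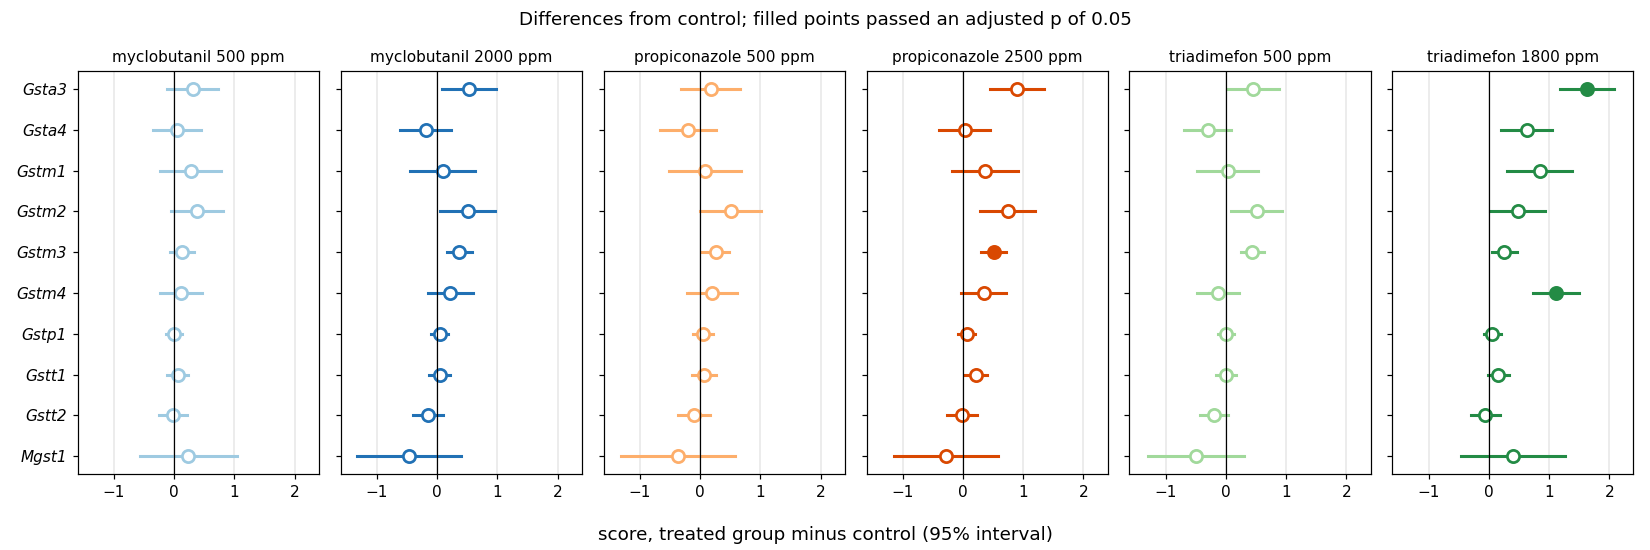
Difference of scores from the controls (horizontal axes, with 95% intervals from the limma fit) of the 10 genes in each treated group. Filled points passed an adjusted p of 0.05 over all probe sets: Gstm3 at propiconazole 2500 ppm (0.508) and Gsta3 (1.63) and Gstm4 (1.11) at triadimefon 1800 ppm.

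Counted over the members, 2 of 10 passed as higher at triadimefon 1800 ppm, where 1.04% of all probe sets did, and 1 of 10 at propiconazole 2500 ppm, where 0.132% did. None of the 10 was called lower, beside 0.129% of probe sets at triadimefon 1800 ppm and 0.122% at propiconazole 2500 ppm. An unadjusted p below 0.05 was found for 6 members at triadimefon 1800 ppm (10.8% of all probe sets) and 4 at propiconazole 2500 ppm (19.9%). The groups did not overlap, with the treated arrays higher, for 3 members at triadimefon 1800 ppm (1.18% of all probe sets) and for 3 at propiconazole 2500 ppm (0.767%). At triadimefon 500 ppm that held for Gstm3 (0.132% of probe sets). The median difference over the 10 genes was 0.438 at triadimefon 1800 ppm, beside 0.0185 over all probe sets, and 0.283 at propiconazole 2500 ppm, beside -0.0334. 9 of 10 differences were positive at triadimefon 1800 ppm (65.7% of all probe sets) and 8 of 10 at propiconazole 2500 ppm (28.2%). Most probe sets score lower than most members. The 13 hepatocyte markers, which score high, had a median difference of 0.289 at triadimefon 1800 ppm, with 12 positive. At propiconazole 2500 ppm their median was -0.226, with 1 positive. All 6 comparisons with controls share the same 7 animals.

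In the other treated groups the limma fit called 0 of the 10 members. At myclobutanil 500 ppm none had an unadjusted p below 0.05 either, and 0.0% of all probe sets were called and 4.13% had such a p. At myclobutanil 2000 ppm 3 members, Gsta3, Gstm2 and Gstm3, had an unadjusted p below 0.05, as did 24.2% of all probe sets, of which 0.0644% were called. At propiconazole 500 ppm it was 2 members, Gstm2 and Gstm3, beside 9.23% of probe sets and 0.0% called. At triadimefon 500 ppm it was 3, Gsta3, Gstm2 and Gstm3, beside 29.3% and 0.00966% called. The median differences of the 10 genes in these groups ran from 0.00165 to 0.121.

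Between the levels of a compound, Gsta3, Gsta4, Gstm1 and Gstm4 were called higher at triadimefon 1800 ppm than at 500 ppm. The arrays of the 2 levels did not overlap for 4 members, Gsta3, Gsta4, Gstm4 and Mgst1. In that comparison 22.3% of all probe sets were called higher, 21.8% were higher without overlap, 41.1% (4 of the 10 members) had an unadjusted p below 0.05, and the 3′–5′ differences of the groups do not overlap, so array quality and dose cannot be told apart in it. The differences were 0.930 for Gsta4 (adjusted p = 0.00754) and 0.816 for Gstm1 (adjusted p = 0.0376). The Gstm1 call was lost under 12 of 22 alternatives, among them quantile normalisation (0.0466, adjusted p = 0.805), equal array spread (0.187, adjusted p = 0.342) and the omission of any of 6 single arrays (triadimefon 500 ppm replicates 2 to 5 and 1800 ppm replicates 1 and 3). Without 1800 ppm replicate 1, Gstm1 differed by 0.467 (adjusted p = 0.173). The Gsta3 call was lost under 4 of the 22 and the Gsta4 call under 3, in each case with the number series block and the 3′–5′ covariate among them. Under the 3′–5′ covariate, Gstm4 alone of these 4 passed (1.08, adjusted p = 0.0336), and Gsta3 (1.06, adjusted p = 0.0872), Gsta4 (0.349, adjusted p = 0.304) and Gstm1 (0.506, adjusted p = 0.498) did not. Between the propiconazole levels all 10 differences were positive, from 0.0107 to 0.719, but none passed (0.0% of probe sets called; 1 member and 1.18% of probe sets with an unadjusted p below 0.05). The largest of them was that of Gsta3 (95% interval 0.169 to 1.27), and the arrays did not overlap for Gstt1 (1.36% of probe sets). Between the myclobutanil levels 5 of 10 were positive and none passed (0.0% called; 1 member and 11.0% with an unadjusted p below 0.05).

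The compounds could be compared at 500 ppm, in 3 pairs. Myclobutanil is a nitrile, propiconazole a cyclic ketal and triadimefon a ketone, and each carries a triazole ring. In no pair did any of the 10 genes pass (limma; 0.0% of all probe sets called in each pair). An unadjusted p below 0.05 was reached by none for myclobutanil minus propiconazole (4.29% of probe sets) or propiconazole minus triadimefon (2.49%). Gstm3 reached it for myclobutanil minus triadimefon (19.1%), with a difference of -0.309 (95% interval -0.517 to -0.101, adjusted p = 0.236). Myclobutanil 500 ppm holds 2 arrays of high GAPDH difference, on which Gstm3 scored -0.0922 and 0.0245, and triadimefon 500 ppm none. For Gsta3 the intervals were -0.392 to 0.660 for myclobutanil minus propiconazole, -0.601 to 0.310 for myclobutanil minus triadimefon and -0.805 to 0.246 for propiconazole minus triadimefon, so these data do not show that the compounds act alike on it. The high levels differ between the compounds and were not compared.

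The members rose and fell together across arrays in part. The arrays differ in RNA quality and in the spread of their scores, and all members read on an array share these. Over 32 arrays, the highest correlations between members were 0.863 for Gsta4 with Mgst1 and 0.818 for Gstm1 with Mgst1. They were 0.907 and 0.892 for deviations from the group means. Gsta3 and Gstm4, which rose in the same group, correlated at 0.579 over all arrays and at -0.0827 within groups. Replicate 1 of triadimefon 1800 ppm had the highest score of the 4 arrays for 6 of 10 members and the lowest for 3, Gsta3, Gsta4 and Gstt2. Over all probe sets that array was highest for 38.3% and lowest for 28.8%.

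The genes whose scores over the 32 arrays were most like those of the called members were found by Pearson correlation. For Gsta3 they were Ggt1 (0.877), which encodes the enzyme that starts the breakdown of extracellular glutathione and its conjugates, Cyp1a1 (0.865), a P450 induced through Ahr, and Fgf1 (0.863), a growth factor. For Gstm4 they were Trip6 (0.877), Naa40 (0.837) and Tbcel (0.832). For Gstm3 they were Sgpl1 (0.854), which breaks down sphingosine phosphate, Cd36 (0.825), a fatty acid receptor, and Pdgfc (0.817), a growth factor.

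The rest of the glutathione pathway was read from gene lists. Of 16 other transferase genes measured (of 20 listed), 1 passed against the controls in any treated group: Gstt3, the theta-class neighbour of Gstt1, at triadimefon 1800 ppm. Its scores there were 5.16, 4.15, 4.48 and 4.07, above the controls' 3.27 to 4.02, a rise of 0.901 (95% interval 0.440 to 1.36; limma, adjusted p = 0.0391). The median of the 16 differences was 0.0968 there, and 11 were positive. Of all probe sets 1.04% were called higher in that group. Gsta1 differed by 0.391 (adjusted p = 0.695), and the probe set shared by Gsta5 and Gsta2 by 0.873 (0.16 to 1.58, adjusted p = 0.299), and neither passed.

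Of 12 measured genes of glutathione synthesis, 1 rose at triadimefon 1800 ppm, the amino acid transporter subunit Slc3a2, by 0.525 (adjusted p = 0.0424). Replicate 1 scored 2.98 and the other 3 arrays 2.02 to 2.13, against 1.71 to 1.85 in the controls. The subunits of the enzyme that limits the rate of synthesis did not pass there, with differences of 0.170 for Gclc (-0.15 to 0.49) and -0.0244 for Gclm (-0.45 to 0.40). Gclc at propiconazole 2500 ppm was 0.358 above the controls (0.04 to 0.68, adjusted p = 0.208). Of 14 measured genes of glutathione reduction and peroxide removal (15 listed), 1 rose, Gsr, the glutathione reductase, at propiconazole 2500 ppm, by 0.439 (adjusted p = 0.0452), with scores of 0.637, 0.544, 0.486 and 0.786 against -0.0795 to 0.564 in the controls, so that the groups overlapped. The share of all probe sets called higher was 1.04% at triadimefon 1800 ppm and 0.132% at propiconazole 2500 ppm.

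Of the genes that act on conjugates after the transferase step, 2 of 18 for breakdown and 2 of 5 exporters passed at triadimefon 1800 ppm, where 1.04% of all probe sets were called higher. The medians of these lists were 0.0854 and 0.156, beside 0.0185 over all probe sets. In that group both were below the medians for synthesis (0.160), reduction and peroxide removal (0.227), hepatocyte markers (0.289) and Kupffer cell markers (0.353). Both were above the median of the regulators (0.0384), and that of the exporters was above that of the other transferases (0.0968). For breakdown (19 listed) the 2 that rose were Ggt1 by 0.628 (adjusted p = 0.000118; 0.617, 0.929, 0.749 and 1.14 against 0.116 to 0.327) and Cndp2, a dipeptidase that splits cysteinylglycine, by 0.703 (adjusted p = 0.00156; 1.86 to 2.41 against 1.27 to 1.67). Neither group overlapped its controls. Of the exporters (6 listed), Abcc3 and Abcc5 rose there, by 0.812 (adjusted p = 8.34e-07) and 0.156 (adjusted p = 0.0245). Abcc3, which exports to the blood side of the hepatocyte, also rose at propiconazole 2500 ppm, by 0.480 (adjusted p = 0.00700), from controls of -0.0807 to -0.0156 to 0.308, 0.314, 0.227 and 0.843. Abcc2, the exporter to bile, was 0.665 above the controls at triadimefon 1800 ppm (0.27 to 1.06, adjusted p = 0.0978).

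Of 14 measured regulators (15 listed), 1 passed against the controls: Ahr at propiconazole 2500 ppm, where it rose by 0.470 (adjusted p = 0.0452) and scored 0.405 to 0.610 against -0.190 to 0.226 in the controls. Over all probe sets 41 (0.132%) were called higher there, and 21 once the 3′–5′ difference was a covariate. Values of the list genes under the alternatives are not given here. In the triadimefon 1800 ppm arrays Ahr scored 0.515, -0.194, 0.596 and 0.451 and did not pass (0.346, adjusted p = 0.113). There Nfe2l2 differed by 0.0128 (-0.39 to 0.41), Nr1i2 by 0.00295 (-0.25 to 0.26) and Nr1i3 by 0.169 (-0.08 to 0.42). These are transcript levels of the regulators and not their activity. No gene of the 6 lists was called lower than the controls in any treated group. In the groups not named here for a list, no gene of that list passed against the controls.

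**Figure D4:**
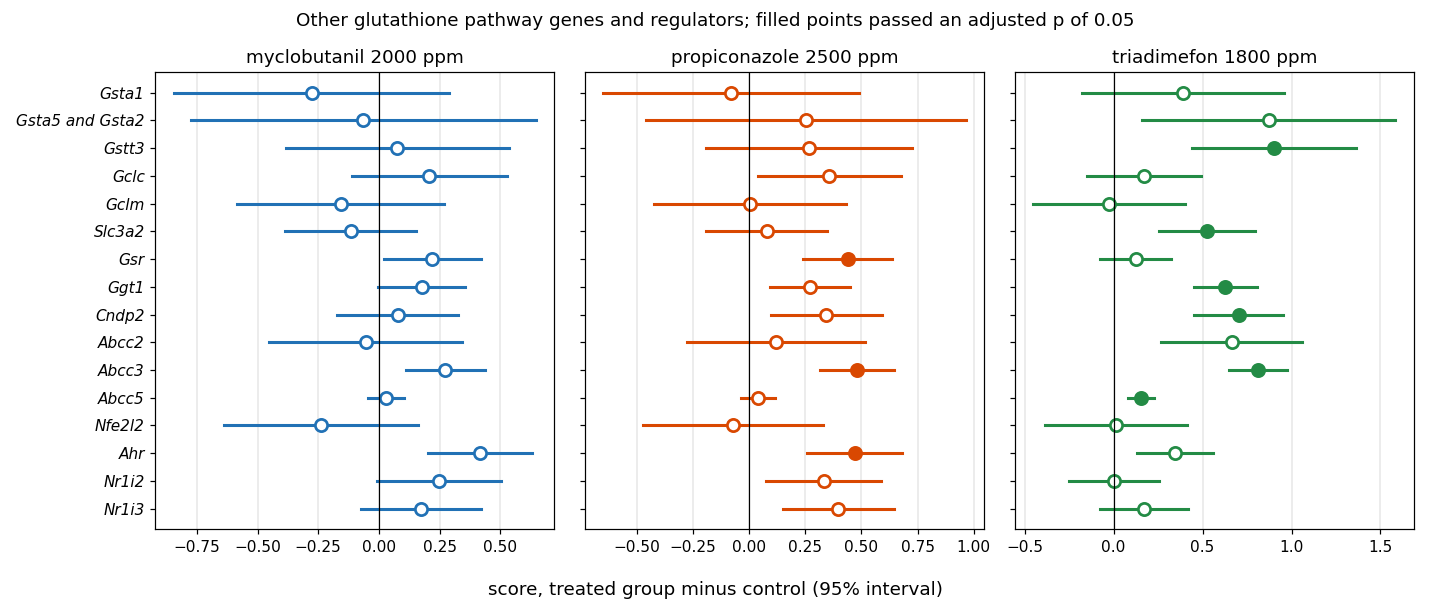
Difference of scores from the controls (horizontal axes, with 95% intervals from the limma fit; scales differ between panels) for 16 genes or shared probe sets of the glutathione pathway and its regulators in the high-level groups. Filled points passed an adjusted p of 0.05: Gsr, Abcc3 and Ahr at propiconazole 2500 ppm, and Gstt3, Slc3a2, Ggt1, Cndp2, Abcc3 and Abcc5 at triadimefon 1800 ppm.

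Of the markers of other liver cells, 1 of 7 for bile duct (Epcam) and 1 of 9 for stellate cells (Col1a2) passed as higher at triadimefon 1800 ppm. By the limma fit 0 of 8 passed there for Kupffer cells, 0 of 7 for endothelium and 0 of 8 for blood cells. The share of all probe sets called higher in that group was 1.04%. The mean score of 2 lists did not overlap the controls. The mean score of the 7 bile duct markers measured was 0.0459 to 0.129 there and -0.0546 to -0.00266 in the controls. Their median difference was 0.0316, and all 7 were positive. The mean score of 9 stellate cell markers was 0.708 to 0.823 against 0.525 to 0.623. The other lists overlapped the controls. The 8 Kupffer cell markers (11 listed) averaged 1.21 to 1.66 against 0.897 to 1.35, and 7 endothelial markers (8 listed) 1.01 to 1.25 against 0.840 to 1.15. The 8 blood cell markers (10 listed), Hbb and Ptprc among them, averaged 0.439 to 0.682 against 0.458 to 0.735. The 13 hepatocyte markers averaged 4.46 to 5.47 against 4.01 to 5.30. Median differences were 0.353 for Kupffer cell markers (8 positive) and 0.121 for stellate cell markers (7 positive). They were 0.113 for endothelial markers (6 positive) and 0.00895 for blood cell markers (6 positive). At propiconazole 2500 ppm each of these ranges overlapped that of the controls. The part of these differences in the values of Gsta3, Gstm4 and the pathway genes was not tested.

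**Figure D5:**
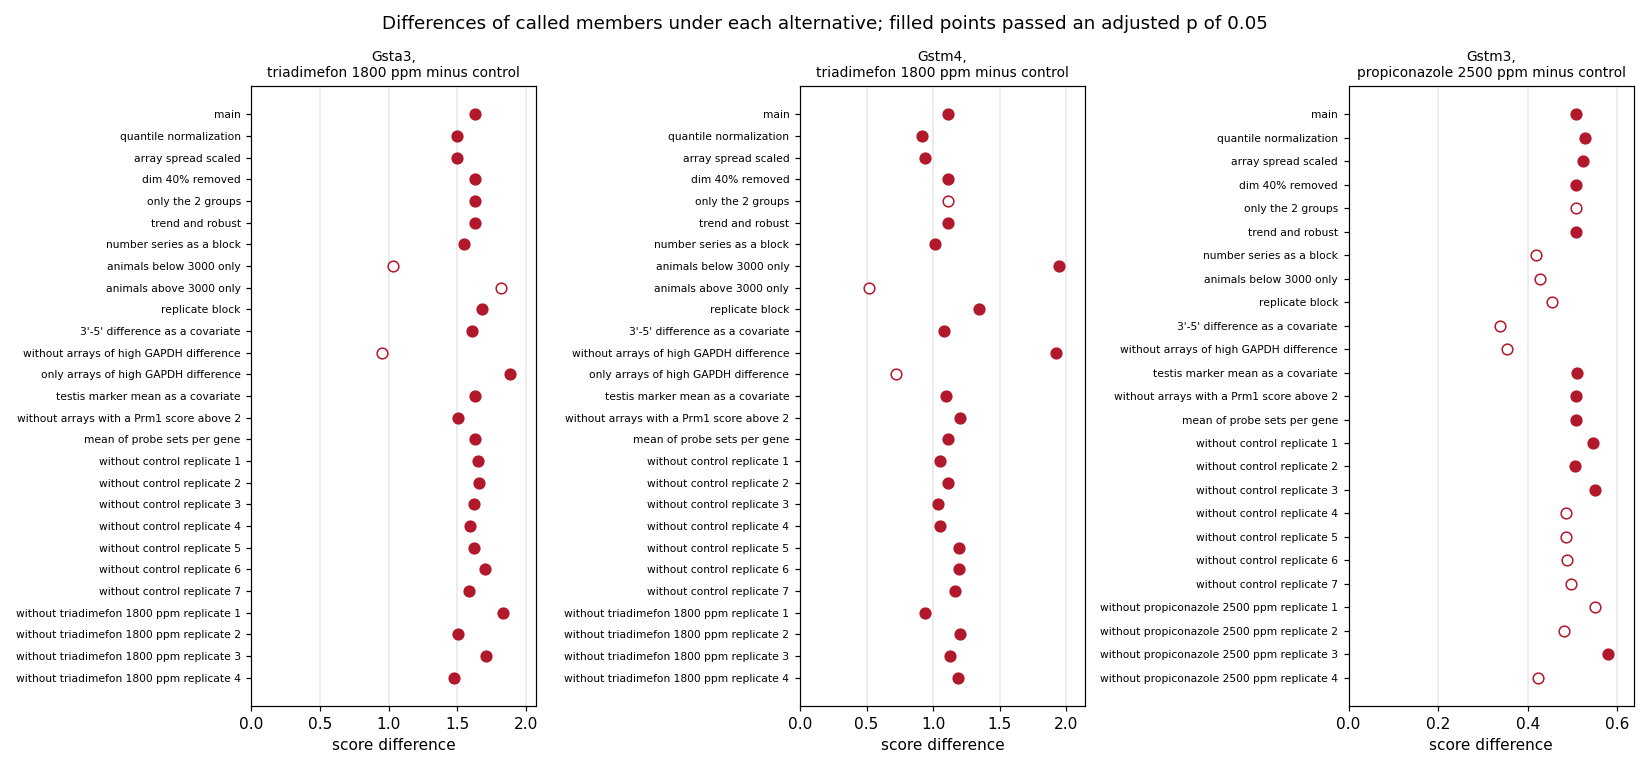
Differences of scores (horizontal axes) of the 3 members called against the controls, under the main setting and each alternative (vertical axes). Filled points passed an adjusted p of 0.05: 23 of 26 alternatives for Gsta3 and for Gstm4 at triadimefon 1800 ppm and 11 of 24 for Gstm3 at propiconazole 2500 ppm, with all differences above 0.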

How the data were processed

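Per the labels, RNA of single rats was put on Affymetrix rat genome arrays. The titles and the labelling protocol name liver, and the extraction protocol names testis. The authors deposited 31099 scores for each array; how these were summarised, normalised and scaled the labels do not say. The median score of an array lay between 0.00531 and 0.0585 and its SD between 0.701 and 1.02. Of 35 arrays listed, 3 (1 at myclobutanil 2000 ppm, 2 at propiconazole 500 ppm) hold no values, which left 32. The series' design text calls the samples biological replicates, and their number limits the precision.

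The 57 control probe sets were left out of the tests. The 31042 others entered a limma fit (version 3.58.1, R 4.3.3) of all 7 groups on the scores as deposited. The test was planned for log2 values or scores, whichever was deposited, and the labels do not state which these are. The 12 comparisons were two-sided, with Benjamini-Hochberg adjustment over all probe sets of a comparison and a threshold of 0.05. The fit was also run on simulated data with independent noise for each probe set and array. Those data held none of the array differences named above, so they cannot show how the fit handles them. Platform annotation gave 1 symbol to 20826 probe sets, several to 436 and none to 9780, and 20758 Entrez identifiers matched the RefSeq gene table. A gene is represented by its probe set of highest mean. Replicate numbers did not pair the arrays.

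The genes named are the 10 members, the list genes that passed against the controls (up to 4 of smallest p a list and comparison), Gsta2, Gsta5, Gclc, Gclm, Gsr, Abcc2, Abcc3, Nfe2l2, Nr1i2, Nr1i3 and Ahr, and the 3 genes most correlated with each called member. Gsta1 was added after its values were seen. The members and lists were chosen with earlier results of these data known. Alternatives were quantile normalisation, equal array spread, dropping the 40% of lowest mean, the 2 groups alone, trended and robust variances, the mean of a gene's probe sets, blocks for number series and replicate, each number series alone, the 3′–5′ difference as a covariate, leaving out arrays with a GAPDH difference above 0.9, and leaving out each replicate. The testis marker covariate, the omission of arrays with a Prm1 score above 2 and the fit of high-GAPDH arrays alone were chosen after seeing the data. Promoter sequences are the 250 bases before RefSeq starts (GRCr8).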

Additional observations from a re-analysis of the deposited data

Results flagged for a closer look

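Scores that stood apart from the rest of their group by Dixon's criterion were looked for in the 10 members and 16 pathway genes, over 156 groups of 4 to 7 arrays. 10 stood apart, and chance alone gives about 1 in 20 groups. Among the members, Gstm2 was high in triadimefon 1800 ppm replicate 1 (4.48; nearest array 3.14), Gstm4 was high in myclobutanil 500 ppm replicate 5 (2.17; nearest 1.52), an array of high GAPDH difference, and Gstp1 was low in triadimefon 1800 ppm replicate 3 (0.769; nearest 1.07). In triadimefon 1800 ppm replicate 1, Slc3a2 (2.98; nearest 2.13) and Gsr (0.625; nearest 0.202) were high as well. That animal is the triadimefon 1800 ppm animal numbered below 3000, and its array is the group's array with a GAPDH difference under 0.9.

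At propiconazole 2500 ppm Abcc3 was high in replicate 4 (0.843; nearest 0.314), Slc3a2 was low in replicate 3 (1.66; nearest 1.89) and Ahr was high in replicate 3 (0.610; nearest 0.431). Abcc3 was low in myclobutanil 500 ppm replicate 4 (-0.0554; nearest -0.00504), and Abcc5 was low in triadimefon 500 ppm replicate 5 (0.0282; nearest 0.0981).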

How the results depend on the processing

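Gsta3 at triadimefon 1800 ppm passed under 23 of 26 alternatives (0.950 to 1.89; adjusted p up to 0.151) and Gstm4 under 23 of 26 (0.522 to 1.95; adjusted p up to 0.539), Gstm4 also failing with only the 2 groups in the fit (adjusted p = 0.108). Gstm3 at propiconazole 2500 ppm passed under 11 of 24 (0.339 to 0.578; adjusted p up to 0.338). No called member changed direction. The number of members called at triadimefon 1800 ppm, 2 in the report, was 4 after quantile normalisation, with equal array spread and with the 3′–5′ covariate, 4 among animals below 3000 and 6 without arrays of high GAPDH difference (both fits hold 1 treated array, whose spread is taken from the other groups, and are no measure of stability), 1 with those arrays alone or the 2 groups alone, and 0 among animals above 3000. At propiconazole 2500 ppm the 1 became 5 after quantile normalisation, 3 with equal spread, and 0 with the 2 groups alone, the number series block, animals below 3000, the replicate block, the 3′–5′ covariate or without arrays of high GAPDH difference. At triadimefon 500 ppm the 0 became 1 (Gstm3) after quantile normalisation, with equal spread and with trended and robust variances, and at myclobutanil 2000 ppm 1 (Gstm1) after quantile normalisation. For triadimefon 1800 against 500 ppm the 4 became 2 with the number series block and 1 with the 3′–5′ covariate. The causes of these changes were not tested.

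Leaving out 1 replicate at a time gave 0 to 1 calls at myclobutanil 2000 ppm, 0 to 3 at propiconazole 2500 ppm, 0 to 2 at triadimefon 500 ppm, 2 to 2 at triadimefon 1800 ppm, 3 to 4 for triadimefon 1800 against 500 ppm and 0 to 0 elsewhere. Same-numbered arrays did not deviate together in any of the 12 comparisons, so the numbers were not taken as pairing; with the replicate block Gsta3 and Gstm4 at triadimefon 1800 ppm were 1.68 and 1.34 above the controls and passed, and Gstm3 at propiconazole 2500 ppm was 0.455 and did not (adjusted p = 0.237). The number of arrays, the unstated scale of the scores and the uneven array quality limit these values.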
